A study of Mus musculus with 6 samples.

Results

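The chromatin around the genes of the aryl hydrocarbon receptor (Ahr) pathway and around Il22, the gene for interleukin 22, was examined in cultured T helper cells. The genes were Ahr, its binding partner Arnt, its repressor Ahrr, the target genes Cyp1b1 and Tiparp, and Il22. All peaks were taken from each of 6 ATAC-seq peak lists in the body of each gene plus 50 kb on either side, or plus 25 kb for Il22. Overlapping or touching peaks, whichever list they came from, were treated as 1 region, which gave 71 regions in the 6 windows out of 236017 in the genome. The Ahr window held 10 regions, Ahrr 15, Arnt 15, Cyp1b1 12, Tiparp 9 and Il22 10.

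ATAC-seq uses the transposase Tn5 to cut and tag accessible DNA, and the study applied it to compare the accessible sites of T helper subsets. The cells were wild-type naive CD4+ T cells from spleens of C57BL6/J mice, activated through CD3 and CD28 and analysed on day 5. Th2 cultures received IL-4, IL-2 and a blocking antibody to IFNγ, and Th9 cultures received the same with TGF-β1 added. Th17 cultures received IL-6, TGF-β1, IL-23 and IL-1β with antibodies that blocked IFNγ, IL-4 and IL-2, and the recipes named no added ligand of Ahr. Each subset had 2 libraries, numbered 1 and 3, and nothing in the labels said whether these came from separate mice, so the p-values below measure only the spread between these libraries, which may be technical. Cultures of this kind are mixed populations, and fewer cells with a site open cannot be told apart from less opening in every cell.

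Ahr is a transcription factor that waits in the cytosol in a complex with Hsp90 and the co-chaperone encoded by Ptges3. When a ligand such as a plant or tryptophan derivative binds, Ahr moves to the nucleus, pairs with Arnt and binds elements built around the word GCGTG at target genes. Some targets hold the response back, since Ahrr competes for Arnt and Tiparp is an enzyme that attaches ADP-ribose to Ahr. Cyp1b1, another target, is a cytochrome P450 that breaks down small molecules. In T helper cells Ahr is best known from Th17 cells, where it takes part in the production of interleukin 22, a cytokine that acts on epithelial cells.

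The sequences that the results turn on are given here in the mm10 build (GRCm38). The first 6 are the middles of called regions, each at most 300 bp long and read on the plus strand. They show the Il22 regions at −15.8 and −9.7 kb, the Ahr region with the lowest p between subsets, an Ahr region called in Th9 and Th2 cells, and both Arnt intron regions called in Th9 cells alone. The other 2 are RefSeq promoters read in the direction of the gene, those of Ahrr, with 3 GCGTG words, and Il22, where no library had a peak. Capitals mark every match, on either strand, to GCGTG (the core of the Ahr and Arnt element), TNGCGTG (its longer form), TGANTCA (the AP-1 word) or AGGTCA (a word bound by nuclear receptors), and a sequence with no capitals holds none of them.
Il22 −15.8 kb (chr10:118189043-118189342, plus strand): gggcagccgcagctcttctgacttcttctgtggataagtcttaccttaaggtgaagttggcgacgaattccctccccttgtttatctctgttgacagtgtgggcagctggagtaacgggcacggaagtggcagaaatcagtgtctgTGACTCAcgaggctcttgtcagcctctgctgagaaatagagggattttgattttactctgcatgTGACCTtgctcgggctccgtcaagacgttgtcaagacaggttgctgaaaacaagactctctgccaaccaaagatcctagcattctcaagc
Il22 −9.7 kb (chr10:118195095-118195394, plus strand): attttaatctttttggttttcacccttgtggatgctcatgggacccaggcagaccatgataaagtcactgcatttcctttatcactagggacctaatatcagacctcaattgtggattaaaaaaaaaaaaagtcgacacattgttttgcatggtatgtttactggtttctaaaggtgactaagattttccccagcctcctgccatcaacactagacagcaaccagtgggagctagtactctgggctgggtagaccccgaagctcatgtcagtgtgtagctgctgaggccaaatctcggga
Ahr −28.0 kb (chr12:35562893-35563192, plus strand): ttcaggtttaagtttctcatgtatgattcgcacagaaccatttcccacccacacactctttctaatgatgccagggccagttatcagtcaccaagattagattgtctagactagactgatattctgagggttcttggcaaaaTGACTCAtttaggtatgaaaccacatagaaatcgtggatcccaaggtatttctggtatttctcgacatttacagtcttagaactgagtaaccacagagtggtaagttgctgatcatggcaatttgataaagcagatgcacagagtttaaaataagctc
Ahr +41.6 kb (chr12:35493269-35493568, plus strand): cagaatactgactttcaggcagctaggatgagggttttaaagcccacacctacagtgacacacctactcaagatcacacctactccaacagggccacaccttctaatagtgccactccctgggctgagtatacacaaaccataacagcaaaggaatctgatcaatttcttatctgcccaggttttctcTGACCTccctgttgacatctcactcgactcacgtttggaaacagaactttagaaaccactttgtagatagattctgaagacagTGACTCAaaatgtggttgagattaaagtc
Arnt +24.9 kb (chr3:95459128-95459427, plus strand): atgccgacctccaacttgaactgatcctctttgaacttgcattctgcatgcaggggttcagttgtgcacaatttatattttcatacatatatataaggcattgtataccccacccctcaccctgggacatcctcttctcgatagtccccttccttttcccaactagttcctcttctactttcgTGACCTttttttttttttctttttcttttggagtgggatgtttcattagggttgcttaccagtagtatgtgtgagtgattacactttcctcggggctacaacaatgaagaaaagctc
Arnt +50.1 kb (chr3:95484370-95484600, plus strand): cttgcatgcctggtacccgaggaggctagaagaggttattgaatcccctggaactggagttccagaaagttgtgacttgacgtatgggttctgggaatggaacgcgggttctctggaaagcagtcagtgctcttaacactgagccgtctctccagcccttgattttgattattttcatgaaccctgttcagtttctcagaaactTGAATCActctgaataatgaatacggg
Ahrr promoter (chr13:74292282-74292581, minus strand): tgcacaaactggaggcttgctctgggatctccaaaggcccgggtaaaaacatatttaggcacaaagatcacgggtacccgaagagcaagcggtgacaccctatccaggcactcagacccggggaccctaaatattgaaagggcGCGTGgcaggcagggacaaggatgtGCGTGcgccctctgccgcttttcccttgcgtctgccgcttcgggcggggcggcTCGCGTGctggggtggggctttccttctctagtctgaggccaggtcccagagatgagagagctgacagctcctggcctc
Il22 promoter (chr10:118204714-118205013, plus strand): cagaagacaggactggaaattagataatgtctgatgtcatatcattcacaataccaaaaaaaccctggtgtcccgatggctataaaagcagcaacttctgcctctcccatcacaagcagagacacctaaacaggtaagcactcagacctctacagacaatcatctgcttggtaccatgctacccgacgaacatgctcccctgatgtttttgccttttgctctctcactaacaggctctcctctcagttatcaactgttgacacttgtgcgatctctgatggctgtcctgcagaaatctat

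The 6 lists held between 100317 and 142213 peaks. Mean background coverage, worked out from the fold and p-values of peaks of constant height, ran from 5.65 fragments per base in Th9 replicate 1 to 17.7 in Th17 replicate 3. The strength of a peak is given as the percentile of its fold enrichment within its own list, so that 90 means that 90% of that library's peaks were weaker. Promoter peaks for markers followed the labels only in part. Il9 was called in Th9 cells (percentiles 88.6 and 90.7) and, with lower values, in Th2 cells (37.1 and 44.4), Il17f in Th17 cells alone (86.7 and 87.5), and Cd3e in all 6 libraries. Il13 was called in Th2 cells alone (51.5 and 86.8) and Il17a in Th17 cells (81.4 and 69.5) and Th2 replicate 3 (36.1). The other Th2 markers were at least as strong in Th9 cells, with Il4 at 89.5 and 92.3 in Th9 cells, 87.8 and 88.3 in Th2 cells and no peak in Th17 cells, and Gata3 at 95.6 and 93.8, 87.7 and 90.0, and 88.3 and 87.8 in that order. Cd79a (B cells), Cd8a (CD8 T cells), Csf1r and Lyz2 (myeloid cells) had no promoter peak in any library, and the Cd4 promoter was called in 4 libraries.

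All 6 libraries called 30 of the 71 regions (42.3%), against 21.4% of all regions in the genome. A single library called 18 (25.4%), against 37.2% of all regions. A region called in both libraries of at least 1 subset and in neither library of another is called subset-patterned here, and 11 regions were of this kind (15.5%), close to the 17.0% among all regions. Of these, 3 were called in Th9 and Th2 cells and not in Th17 cells (2.0% of all regions had this pattern), and 1 in Th2 and Th17 cells and not in Th9 cells (1.55% of all). Another 3 were called in Th9 cells alone (1.31% of all) and 1 in Th17 cells alone (1.70% of all), and the last 3 were also called in 1 library of the remaining subset. No region in the windows was called in Th9 and Th17 cells alone (0.296% of all) or in Th2 cells alone (2.87% of all).

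**Figure D1:**
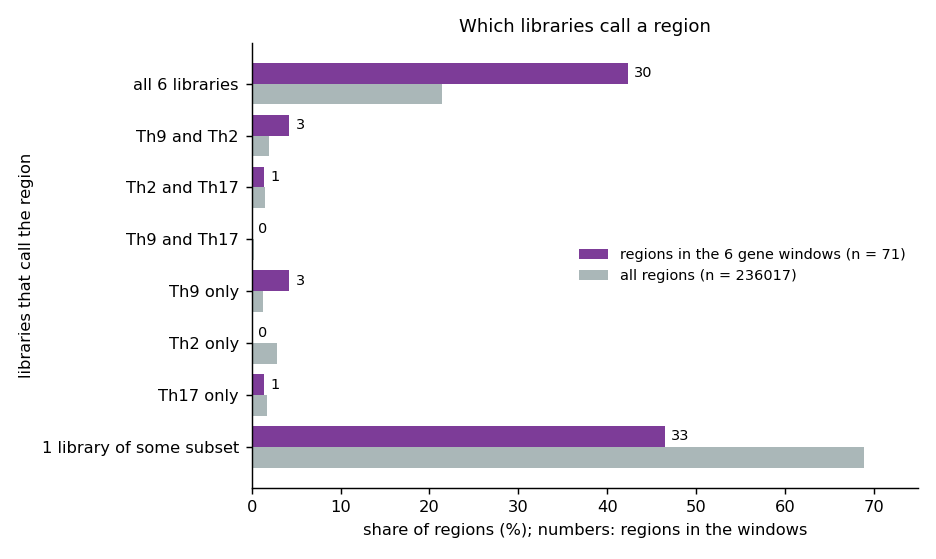
Share of regions (%, horizontal axis) by the libraries that called them, for the 71 regions in the 6 gene windows (purple) and all 236017 regions (grey), with the number of window regions beside each purple bar. Regions called in all 6 libraries made up 42.3% of the windows' regions and 21.4% of all.

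Regions called by all 6 libraries were wider and stronger than those of a single library. A region's width is that of its peaks joined over all lists, so part of the difference in width follows from the joining. In the windows the median width was 218 bp for the 18 regions of a single library and 1379 bp for the 30 regions of all 6, with median percentiles of 25.8 and 80.9. Over all regions the same medians were 263 and 1425 bp and 19.9 and 74.3. Th9 replicate 1 called the most regions in the windows, 54 of 71, of which 6 were called by no other library, and Th17 replicate 3 the fewest, 40, of which 1 was its own. Over all 236017 regions, Th9 replicate 1 likewise had the most regions called by it alone, 26471, and Th17 replicate 3 the fewest, 6580. The weakest fold that was called was 2.11 in Th9 replicate 1 and between 1.71 and 1.83 in the other libraries.

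**Figure D2:**
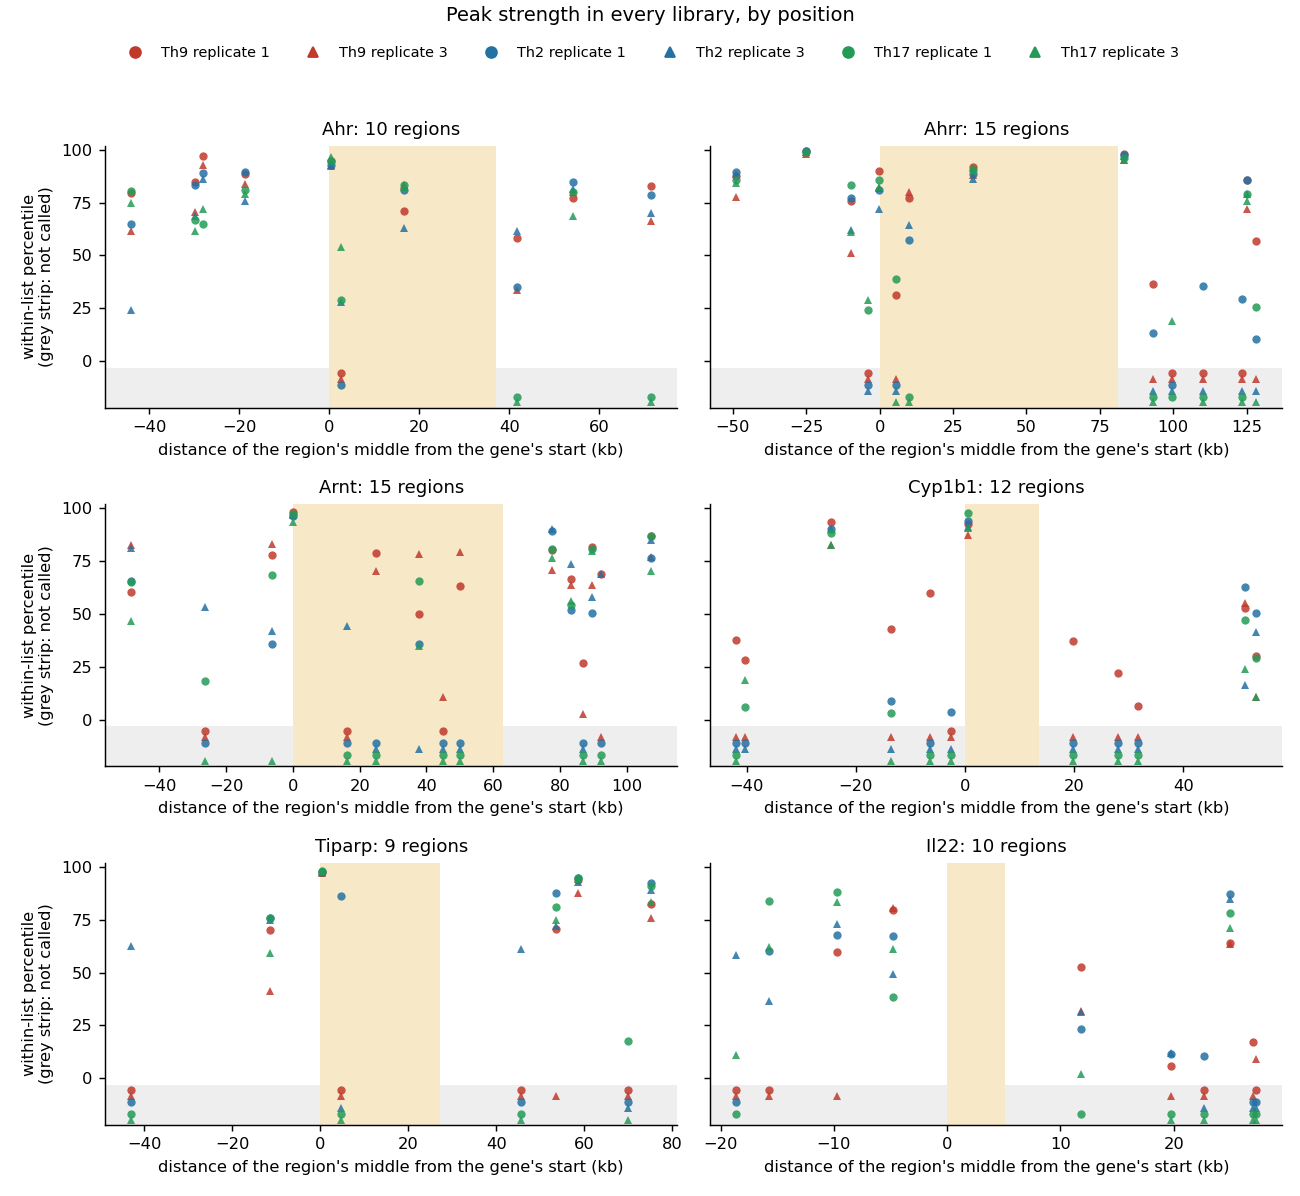
Within-list percentile (vertical axis) of every region in the 6 windows against the distance of its middle from the gene's start (kb), with the gene body shaded. Each point is 1 library, coloured by subset and shaped by replicate number, and points in the grey strip are libraries that did not call the region. The promoters of 5 genes have a point for all 6 libraries, between 72.1 and 98.2, and Il22 has no point in its body.

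The 5 promoters other than that of Il22 were open in every library. Their regions were strongest at Tiparp, with a mean of 97.6 over the 6 libraries, followed by Arnt at 96.7, Ahr at 93.9, Cyp1b1 at 92.2 and Ahrr at 82.2. The ranges of Tiparp (97.2 to 98.1) and Arnt (93.7 to 98.2) overlapped, as did those of Arnt, Ahr (92.2 to 96.4) and Cyp1b1 (87.2 to 97.6). These ranges therefore did not separate neighbours in the order. Within single libraries, Arnt was above Ahr in all but Th17 replicate 3 (93.7 against 96.4). The order of Tiparp and Arnt, and that of Ahr and Cyp1b1, changed between libraries. Ahrr, at 72.1 to 90.0, overlapped only the range of Cyp1b1, and it was below both Ahr and Cyp1b1 in every library. Among the 12886 coding genes whose promoter was called by all 6 libraries, 82.0% had a lower mean than Tiparp, but only 19.9% a lower mean than Ahrr. A promoter peak in all 6 libraries was common, at 58.7% of 21951 coding genes, while 28.0% had none in any library, as Il22 did.

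As percentiles, the promoters differed little between subsets. The Ahr promoter had percentiles of 94.5 and 92.8 in Th9 cells, 92.8 and 92.2 in Th2 cells and 94.6 and 96.4 in Th17 cells. The Th17 values were the highest of the 6 as percentiles, but by deposited fold Th17 replicate 1 (7.30) was below both Th9 libraries (7.53 and 7.96). The Tiparp promoter had 97.7 and 97.2 in Th9 cells, 97.5 and 97.4 in Th2 cells and 97.8 and 98.1 in Th17 cells, and the Arnt promoter 98.2 and 97.5, 96.5 and 96.7, and 97.5 and 93.7 in the same order. At Tiparp and Arnt no pair of subsets was set apart by more than 1 point. The Cyp1b1 promoter had 92.6 and 87.2 in Th9 cells, 94.0 and 91.1 in Th2 cells and 97.6 and 90.7 in Th17 cells. The Ahrr promoter had 90.0 and 81.9 in Th9 cells, 81.1 and 72.1 in Th2 cells and 85.6 and 82.2 in Th17 cells. At Ahrr both Th2 values were below the other 4, but the gap between both Th9 libraries, and between both Th2 libraries, was of a similar size. Over the 15 tests of these promoters (limma on the percentiles, with Benjamini-Hochberg adjustment over all 50493 regions called in every library) the lowest adjusted p was 0.419.

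Strength was tested in the same fit for all 30 window regions called in every library. None passed an adjusted p of 0.05 in any comparison. Across all regions tested with limma, 0% were called between Th9 and Th2 cells (0 of 50493), 0.242% between Th9 and Th17 cells and 0.757% between Th2 and Th17 cells. At an unadjusted p under 0.05 there were 3, 2 and 3 of the 30 window regions in these comparisons. Among all 50493 regions there were 5146, 6027 and 6056, so the window shares were no higher than those over all regions. Other settings of the test called 1 to 3 window regions in some comparisons, and these are given with the regions below. Regions described for an unadjusted p under 0.05 were chosen after their values were seen.

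The Ahr gene lies on the minus strand of chromosome 12 at chr12:35497974-35535038. Its window held 10 regions, all called by at least 3 libraries, and 7 of them by all 6. The promoter region (chr12:35533942-35535483) covered the first exon. The region with the lowest p of any window region was the one at −28.0 kb (chr12:35562711-35563373), upstream of Ahr and within Gm48236, a long non-coding RNA gene. Its percentiles were 96.9 and 92.8 in Th9 cells, 89.2 and 86.3 in Th2 cells and 64.7 and 71.9 in Th17 cells. The groups did not overlap, with Th9 highest, Th2 next and Th17 lowest. The deposited fold enrichments gave the same order, at 9.48 and 8.0 in Th9 cells, 4.87 and 5.18 in Th2 cells and 2.55 and 2.86 in Th17 cells. The percentile in Th9 cells exceeded that in Th17 cells by 26.6 ± 4.41 (SE, limma, adjusted p = 0.0510), just short of the threshold, and that in Th2 cells exceeded it by 19.5 ± 4.41 (adjusted p = 0.0835). Th9 exceeded Th2 cells by 7.11 ± 4.41 (SE, limma, adjusted p = 0.633). On quantile-normalized log2 fold all 3 differences were called, at 1.46 (limma, adjusted p = 0.000551) between Th9 and Th17 cells, 0.70 (0.0343) between Th2 and Th17 cells and 0.75 (0.0431) between Th9 and Th2 cells. The difference between Th9 and Th17 cells passed 0.05 in 6 of 12 other settings, with adjusted p from 0.000551 to 0.169, and was positive in all of them. That between Th2 and Th17 cells passed in 3 of 12, the other 2 being the block for the replicate number and percentiles among regions called in every library (limma, adjusted p = 0.0281 and 0.0435), and that between Th9 and Th2 cells in 1 of 12. The peak was also shorter in Th17 cells, at 219 and 337 bp, than in Th9 cells, at 486 and 663 bp, with 393 and 474 bp in Th2 cells. Its middle, shown above, held 1 TGANTCA word.

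**Figure D3:**
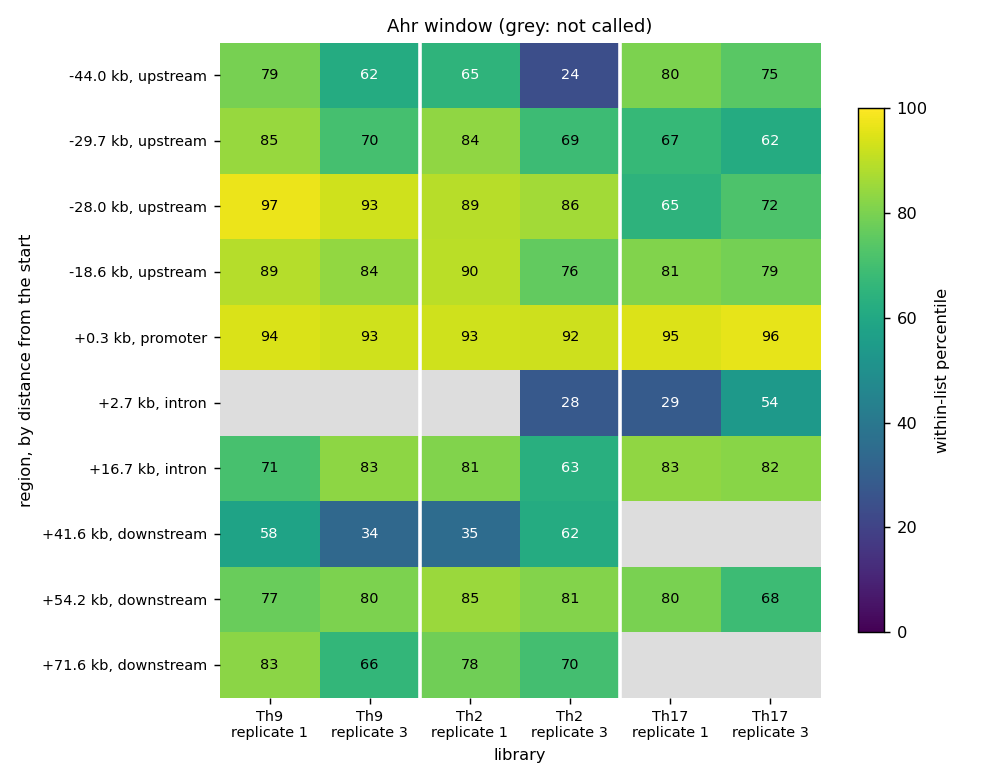
Within-list percentile (colour and printed value) of the 10 regions of the Ahr window in each library, ordered by distance from the Ahr start (kb), with regions a library did not call in grey. The −28.0 kb row falls from 96.9 and 92.8 in Th9 cells to 64.7 and 71.9 in Th17 cells, and the +41.6 and +71.6 kb rows are grey in both Th17 libraries.

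A pair of regions beyond the 3′ end of Ahr was called in Th9 and Th2 cells and in neither Th17 library. The region at +71.6 kb (chr12:35462570-35464389) had percentiles of 82.7 and 66.3 in Th9 cells and 78.4 and 70.0 in Th2 cells. The peaks in Th2 cells spanned 1815 and 1807 bp of it and those in Th9 cells 957 and 909 bp. The region at +41.6 kb (chr12:35493222-35493615) was weaker, at 58.1 and 33.6 in Th9 cells and 35.2 and 61.7 in Th2 cells. Values in Th9 and Th2 cells overlapped at both regions. When a −log10 q of 5 or more was required, the +71.6 kb region kept all 4 of its libraries and the +41.6 kb region only Th2 replicate 3.

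Close to the Ahr start a weak region was missing from Th9 cells instead. An intron region at +2.7 kb (chr12:35532100-35532612) was called in both Th17 libraries, with percentiles of 28.9 and 53.9, in Th2 replicate 3 at 28.0, and in neither Th9 library. All 3 values were low or middling for their lists, and the peaks spanned 173 to 513 bp. The stronger intron region at +16.7 kb (chr12:35517316-35519379) was called by every library, with percentiles from 63.1 in Th2 replicate 3 to 83.3 in Th17 replicate 1. The 4 regions at −18.6, −29.7, −44.0 and +54.2 kb were likewise called by every library. At −44.0 kb the percentiles were 79.4 and 61.7 in Th9 cells, 64.9 and 24.0 in Th2 cells and 80.4 and 74.6 in Th17 cells. Both Th2 values lay below both Th17 values, although the difference of −33.0 ± 14.0 (SE) was not past the threshold (limma, adjusted p = 0.380). It was −12.6 without Th2 replicate 3 and −53.5 without Th2 replicate 1. On log2 fold enrichment after quantile normalization this difference was called (−0.64, limma adjusted p = 0.0408).

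The genes whose promoter values were most like those of Ahr over the 6 libraries were Ofd1 and Trappc2, which share a promoter region, and Bag5. Their Euclidean distances from Ahr over the 6 percentiles were 1.39, 1.39 and 1.73, and the median over 12877 genes was 11.5. These were picked as the nearest of all genes compared, and how many others lay at similarly small distances was not counted.

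The Arnt gene, which encodes the partner of Ahr, lies at chr3:95434388-95497240 on the plus strand. Its window held all 3 regions that were called in Th9 cells alone. The intron region at +24.9 kb (chr3:95458797-95459758) had percentiles of 78.7 and 70.3 in the Th9 libraries, and the intron region at +50.1 kb (chr3:95484370-95484600) had 63.1 and 79.4. Both were well above the middle of the Th9 lists and had no peak in the other 4 libraries. The third, at +87.0 kb beyond the 3′ end, had 26.7 and 2.69. Under this stricter −log10 q the +24.9 kb region was called in both Th9 libraries and the +50.1 kb region in Th9 replicate 3 alone. Its sequence held 1 TGANTCA word and that of the +24.9 kb region 1 AGGTCA word.

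Other Arnt regions varied without an on and off pattern. The region at −6.2 kb had 78.1 and 82.9 in Th9 cells, 35.6 and 41.9 in Th2 cells, 68.6 in Th17 replicate 1 and no peak in Th17 replicate 3. Th9 values were the highest, and 1 of the Th17 libraries had no peak. The region at +77.7 kb had 80.4 and 71.0 in Th9 cells, 89.3 and 90.4 in Th2 cells and 80.6 and 76.4 in Th17 cells. The Th2 values were the highest 2, with a difference between Th9 and Th2 cells of −14.2 ± 5.30 (SE, limma, adjusted p = 0.409), and it was called only under the stricter −log10 q (adjusted p = 0.0498). At +89.7 kb Th2 cells had 50.7 and 57.9, below the 63.6 to 81.7 of the other 4 libraries. The difference between Th2 and Th17 cells there was −26.1 ± 9.59 (SE, limma, adjusted p = 0.288), and it was called on quantile-normalized log2 fold (adjusted p = 0.0378).

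Ahrr lies at chr13:74211118-74292331 on the minus strand. Its window was crowded, and the strongest regions in it belonged to neighbours. The region at −25 kb, over the promoter of Pdcd6, ranged from 98.2 to 99.6, and the one at +83.2 kb, over the promoter of Exoc3, from 95.3 to 97.8. Within the gene, an intron region at +9.9 kb (chr13:74281999-74282878) was called in Th9 and Th2 cells and not in Th17 cells. Its percentiles were 77.2 and 80.0 in Th9 cells and 57.3 and 64.2 in Th2 cells, so that both Th9 values were above both Th2 values. The only region of the 6 windows called in Th17 cells alone was at −3.9 kb (chr13:74295853-74296665), just upstream of the Ahrr promoter. It was weak, with percentiles of 24.0 and 29.0 and folds of 1.91 and 1.93, below the weakest fold called in Th9 replicate 1 (2.11). No library called it with a −log10 q of 5 or more. The intron region at +31.8 kb was strong in all libraries, from 86.1 to 91.9.

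Cyp1b1 lies at chr17:79701537-79715061 on the minus strand. Its promoter region was the widest in any of the windows, at 3742 bp, and the peaks of single libraries covered 2316 to 3742 bp of it. The 2316 bp, in Th17 replicate 1, came from more than 1 peak, since its widest peak in the window had 1176 bp. An upstream region at −24.5 kb was also strong in every library, with 93.6 and 82.8 in Th9 cells, 90.3 and 90.4 in Th2 cells and 88.1 and 82.5 in Th17 cells. Both Th2 values lay above both Th17 values, and the Th9 values overlapped those of both. Another 6 regions came from a single library, 5 of them from Th9 replicate 1. The 1 subset-patterned region, at −40.3 kb, had low percentiles of 5.84 and 19.0 in Th17 cells, 28.4 in Th9 replicate 1 and no peak in Th2 cells.

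Tiparp lies at chr3:65528410-65555518 on the plus strand, and none of its 9 regions was subset-patterned. Beside the promoter, regions at −11.5, +58.5 and +75.3 kb were called by every library. The one at +58.5 kb ranged from 87.8 to 94.9. At +75.3 kb the values were 82.6 and 76.0 in Th9 cells, 92.2 and 89.2 in Th2 cells and 91.0 and 83.5 in Th17 cells, and the difference between Th9 and Th2 cells was −11.4 ± 3.99 (SE, limma, adjusted p = 0.384). The region at +53.5 kb was called by all libraries but Th9 replicate 3. Of the 4 regions seen in a single library, an intron region of 183 bp at +4.8 kb stood at 86.4 in Th2 replicate 1 and was absent from the other 5 lists.

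Il22 lies at chr10:118204942-118210047 on the plus strand, and neither its promoter nor its body was called in any library, Th17 libraries included. The nearest region was at −4.8 kb (chr10:118199891-118200397) and was called by all 6. Its percentiles were 79.6 and 80.5 in Th9 cells, 67.1 and 49.5 in Th2 cells and 38.6 and 60.9 in Th17 cells. Both Th9 values were above the other 4, while Th2 and Th17 values overlapped. The difference between Th9 and Th17 cells was 30.3 ± 11.7 (SE, limma, adjusted p = 0.334). It was 19.1 without Th17 replicate 1 and 41.5 without Th17 replicate 3. The middle 300 bp of the −4.8 kb region consisted almost wholly of short CA and CATA repeats, read on the plus strand.

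At −9.7 and −15.8 kb the Th17 values were instead the highest. The region at −9.7 kb (chr10:118194955-118195534) had percentiles of 87.9 and 83.2 in Th17 cells, 67.6 and 73.0 in Th2 cells and 59.8 in Th9 replicate 1, with no peak in Th9 replicate 3. The 3 subsets did not overlap, with Th17 highest. The region at −15.8 kb (chr10:118188783-118189602) was called in Th17 cells at 83.9 and 62.2 and in Th2 cells at 60.2 and 36.6, and in neither Th9 library. Its peaks were longer in Th17 cells, at 810 and 625 bp, than in Th2 cells, at 240 and 352 bp. These regions lacked a value in at least 1 library and were not tested for strength. When a −log10 q of 5 or more was required, the −15.8 kb region remained in both Th17 libraries only, and the −9.7 kb region in both Th17 and both Th2 libraries. The middle of the −15.8 kb region held 1 TGANTCA and 1 AGGTCA word, and that of the −9.7 kb region none of the 4 words. A region at −18.6 kb was called in Th2 replicate 3 (58.4) and Th17 replicate 3 (11.1).

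**Figure D4:**
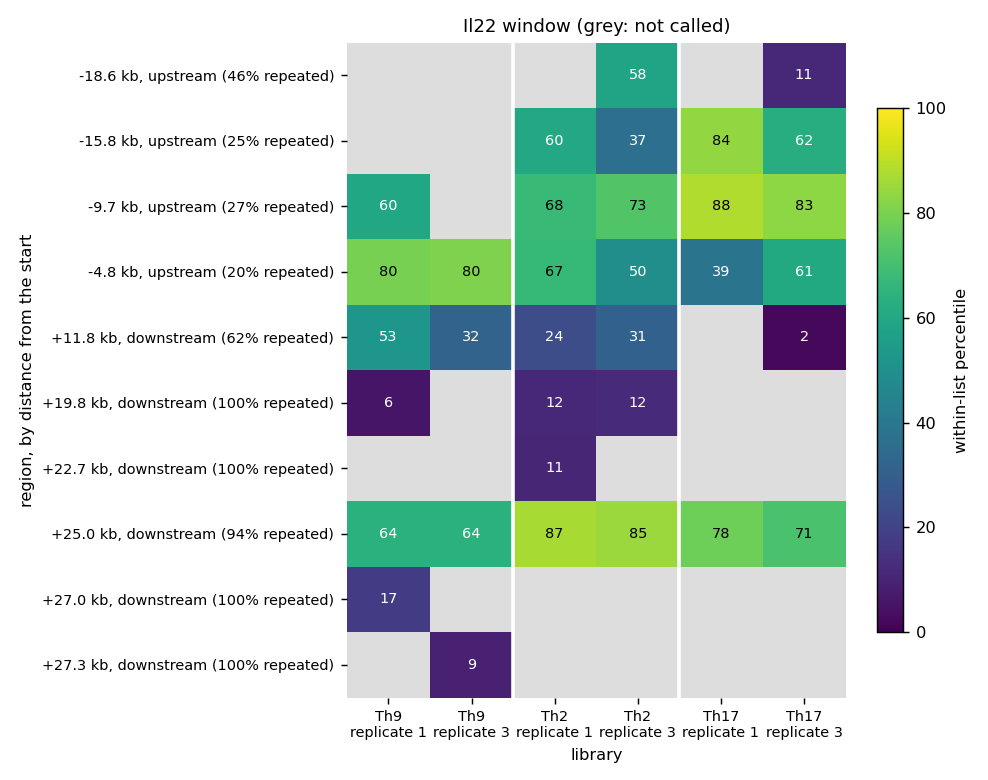
Within-list percentile (colour and printed value) of the 10 regions of the Il22 window in each library, ordered by distance from the Il22 start (kb), with regions a library did not call in grey and the share of each region's 50-base words that recur in the genome in brackets. At −9.7 and −15.8 kb the Th17 values (87.9 and 83.2, 83.9 and 62.2) lie above the Th2 values and the Th9 columns are partly or wholly grey, while at −4.8 kb the Th9 values (79.6 and 80.5) are the highest.

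Downstream of Il22, 6 regions were called. The strongest, at +25 kb (chr10:118229199-118230633), had 63.8 and 63.7 in Th9 cells, 87.0 and 84.9 in Th2 cells and 78.0 and 71.1 in Th17 cells. The subsets did not overlap, with Th2 highest and Th9 lowest, but the difference between Th9 and Th2 cells of −22.2 ± 7.19 (SE, limma) had an adjusted p of 0.364. The region at +11.8 kb had 52.7 and 31.8 in Th9 cells, 23.5 and 31.2 in Th2 cells, 2.14 in Th17 replicate 3 and no peak in Th17 replicate 1. The region at +19.8 kb had 5.84 in Th9 replicate 1, 11.7 and 12.0 in Th2 cells and none in Th17 cells. The last 3, at +22.7, +27.0 and +27.3 kb, were each called by 1 library, at 10.6, 17.3 and 9.10.

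The Il22 window differs from the others in how much of its sequence recurs. Of its 50-base words, the length of a read, 46.7% occur more than once in the genome, against 3.14% to 10.8% in the other 5 windows. Single regions in those windows reached higher shares, such as 82.1% at Arnt +37.7 kb and 76.2% at Arnt −6.2 kb. Of the recurring words in the Il22 window, 97.6% lie within 25 kb of Iltifb, a near copy of Il22 on the opposite strand 79.6 kb away. The authors discarded reads of low mapping quality, which reads from such words tend to have. In the regions downstream of Il22 the share was 61.5% at +11.8 kb, 93.7% at +25 kb and 100% at the other 4. It was 46.3%, 25.3%, 26.6% and 19.7% in the upstream regions, from the farthest to the nearest, 1.71% in the promoter and 29.7% in the gene body. Its part in the missing or weak calls was not tested.

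The 4 sequence words were looked for on both strands in the central 300 bp of each region. TGANTCA was found in 16 of the 71 window regions (22.5%), against 11.7% of all regions, and TNGCGTG in 6 (8.45%), against 2.96%. GCGTG alone was found in 15 (21.1% against 16.3%) and AGGTCA in 11 (15.5% against 17.1%). A TNGCGTG match is also counted as GCGTG. Among the 30 window regions called in every library, TGANTCA was found in 9 and TNGCGTG in 4, against 10.6% and 4.71% of all regions so called. GCGTG was found in 8 of these 30 and AGGTCA in 3, against 24.6% and 14.7%. The 6 regions with TNGCGTG were the promoter regions of Ahr and Ahrr, the Ahr region at +54.2 kb, the Ahrr window's region at −25 kb, the Arnt region at +16.2 kb and the Cyp1b1 region at −13.6 kb. In the Ahr window, 4 of 10 regions held TGANTCA, and 3 of them were those at −28.0, −29.7 and −44.0 kb.

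RefSeq promoters, windows of 300 bp around the start, were at hand for 5 of the 6 genes. That of Ahrr held 3 GCGTG words, 1 of them in the longer form, and those of Tiparp, Arnt and Cyp1b1 held 1 GCGTG word each. That of Il22 held none. Among all 32851 RefSeq promoters, 32.4% held GCGTG and 5.07% TNGCGTG. The GC content of these promoters was 73.7% at Tiparp, 60.3% at Ahrr, 59.3% at Arnt, 58.3% at Cyp1b1 and 45.3% at Il22, and they held 34, 17, 19, 16 and 4 CpG sites in that order. Il22, the gene without a promoter peak, had the lowest GC content and the fewest CpG sites.

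Of 16 other genes of the pathway, 9 had a promoter peak in all 6 libraries and 5 in none. These counts were close to the shares over all coding genes, 58.7% and 28.0%. The 3 genes of the cytosolic complex, Hsp90aa1, Hsp90ab1 and Ptges3, were among the 9, with Hsp90aa1 between 98.8 and 99.6. Among the other Ahr targets, Nqo1 and Ugt1a6a were called in every library, Cyp1a1, the classic inducible cytochrome P450, in 5 with percentiles from 31.1 to 59.3, and Cyp1a2 and Aldh3a1 in none. Of the genes that regulate Il22, Stat3 and Rora were called in all 6 libraries. Arnt2, a relative of Arnt, was called in all 6 with percentiles from 59.3 to 74.0. The promoter of Il23r, the receptor for IL-23, was called in Th17 cells alone, at 12.4 and 62.1. Neither Iltifb nor the receptor genes Il22ra1 and Il22ra2 had a promoter peak, and Il10rb, the shared receptor chain, had one in all 6.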

How the data were processed

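Per the labels and the study's methods, paired 50 bp ATAC-seq reads of 6 libraries were trimmed with Trim Galore 0.4.3, aligned to mm10 with bowtie2 and cleared by the authors of duplicates (Picard), mitochondrial pairs and pairs that mapped with low quality. The authors called peaks for each library on its own with MACS2 2.1.0 (paired fragments, broad, no local background). The cutoff was not given in the sources used here. The deposited lists give each peak's fold enrichment (a ratio), −log10 p and −log10 q, and an integer score that was not used.

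Peaks were 1-based, joined into regions, and called in a library at an overlap of at least 1 bp. Windows and promoters (1000 bp before to 100 bp past each annotated start) came from GENCODE M21 basic, whose assembly matched the lists (0 peaks lay past the end of 21 chromosomes). Where a library had several peaks in a region, the highest percentile was used. Strength was tested with limma 3.58.1 in R 4.3.3 (3 groups, variance trend) over regions called in all 6 libraries, with Benjamini-Hochberg adjustment and a threshold of 0.05. Words were counted in Python 3.11.15. Scripts were tested on simulated data. Described with every value were the promoter regions, all Il22 regions and the subset-patterned regions, plus any past the threshold. Some regions outside this rule were also given with their values, among them Arnt −6.2 kb and Cyp1b1 −24.5 kb, and their choice was not planned. The members and lists were chosen with earlier results of these data known. Alternatives were stricter or equal lists, other windows, overlaps and scales, a replicate block, and each library left out in turn. The lists hold no read counts, so no counting interval is given. Markers and pathway genes are given by promoter peak, and 3 listed genes and 1 sequence are not reported here.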

Additional observations from a re-analysis of the deposited data

How the results depend on the processing

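Of the 71 window regions, 44 were left at a −log10 q of at least 5, 27 at a fold of at least 4, 41 in windows of 25 kb (10 kb for Il22) and 112 in windows of 100 kb (50 kb for Il22). Of the 30 regions called in every library, 19 were left at that −log10 q, 8 at that fold, 16 when peaks had to cover 50% of the region and 17 in the narrower windows. The 11 subset-patterned regions became 7 and 19 in the narrower and wider windows and 34 when 1 library of a subset was enough. With each library left out in turn, the 3 counts ran from 65 to 70, 30 to 32 and 14 to 20.

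For strength, window regions called between Th9 and Th2 cells went from 0 to 1 at a −log10 q of at least 5 and on quantile-normalized log2 fold. Between Th9 and Th17 cells they went to 1 under these settings, under the replicate block and for percentiles among regions called in every library. Between Th2 and Th17 cells they went to 3 on log2 fold and to 1 under the block and those percentiles. The cause was not tested. The calls in all regions (0, 122 and 382) moved more: 375, 455 and 527 at the stricter −log10 q, 1611, 3034 and 3756 on log2 fold, 0, 1909 and 2468 for those percentiles, 0, 79 and 324 for length-weighted means and 0, 0 and 0 without the variance trend. With each library left out in turn they ran from 0 to 270, 0 to 664 and 0 to 1230, and in the windows from 0 to 0, 0 to 1 and 0 to 0, the call being Ahr −28.0 kb without Th17 replicate 1 (adjusted p = 0.0302) or replicate 3 (0.0394). A subset left with 1 library was taken to vary like the others.

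The replicate numbers are shared between subsets, but nothing in the labels says that they pair libraries, and same-numbered libraries deviated together only weakly (correlations of 0.168, 0.031 and −0.01 over 50493 regions). With the replicate block the calls were 0, 1301 and 1929, and Ahr −28.0 kb was called for Th9 against Th17 (adjusted p = 0.0154) and Th2 against Th17 (0.0281), and the block changed no other call in the windows.

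No setting turned the direction of the 9 differences given in the report. Depth is known only as background coverage. The weakest fold called was highest in the shallowest library, Th9 replicate 1 (2.11, against 1.71 to 1.83), so a region missing from that list can lie below its higher floor.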
